A study of Mus musculus with 2 samples.

Results

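The genes described here encode 4 abundant non-coding RNAs and 3 proteins that build on one of them. The RNA genes are Rn7sk (7SK RNA), Rn7s1 and Rn7s2 (both 7SL RNA), Rmrp (the RNA of RNase MRP) and Rpph1 (the RNA of RNase P). The protein genes are Larp7, Mepce and Hexim1, whose products bind 7SK. They were chosen by symbol, after their levels in these libraries had been seen, and are 8 of the 43346 genes in the tables: 5 RNA genes and 3 protein genes. Their levels are therefore a description with no test.

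The study measured total RNA, depleted of ribosomal RNA, from G1E, an immortalized mouse line of strain C57BL/6J labelled as a Gata1- erythroid progenitor. The GATA1 protein switches on the genes of red cell maturation. The cells are labelled male and postnatal with an age of 0 day, no treatment is named, and all samples form 1 group of 2 biological replicates. Each ScriptSeq library started from 100 ng of RNA and has a labelled size range of 200 to 1000 nt.

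7SK RNA holds the kinase P-TEFb (Cdk9 with cyclin T) in an inactive complex: Mepce caps its 5′ end, Larp7 binds its 3′ end, and Hexim1, once bound to the RNA, inhibits the kinase. 7SL is the scaffold of the signal recognition particle (SRP), which brings ribosomes that make secreted and membrane proteins to the endoplasmic reticulum. RNase P removes the 5′ leader of precursor tRNAs, RNase MRP cuts precursor ribosomal RNA, and the pair share most of their proteins. RNA polymerase III (Pol III) makes all 4 kinds of RNA, and none carries a poly(A) tail, so a library of total RNA can hold them.

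Sequences of Rn7sk, Rmrp and Rpph1 are shown because their letters set how reads can be assigned. They are GENCODE M21 transcripts on GRCm38, written 5′ to 3′ with T for U, and positions are counted from 1 at the 5′ end. Rn7sk lies at chr9:78175303-78175633 on the minus strand and is 331 nt long. Its capitals mark the 3 copies of the motif GATC, which reads the same on both strands, and the last 3 letters, the end of the terminal U stretch. In human 7SK, HEXIM1 contacts a GAUC repeat of the first hairpin and LARP7 binds the terminal U stretch.
Rn7sk, positions 1 to 100: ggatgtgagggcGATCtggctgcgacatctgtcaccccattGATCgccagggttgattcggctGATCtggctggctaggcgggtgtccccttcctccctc
Rn7sk, positions 282 to 331: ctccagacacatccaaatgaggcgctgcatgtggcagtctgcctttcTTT
The middle of Rn7sk, not printed, holds no further GATC. GATC is common at this length. Of 5627 annotated transcripts of 250 to 350 nt, 63.3% hold at least 1 copy, 7.5% hold at least 3, and 2.31% end in TTT.

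Rn7s1 lies at chr12:69159295-69159594 on the plus strand and Rn7s2 at chr12:69361182-69361481 on the minus strand, both 300 nt long. The annotated copies were identical in 300 of 300 letters. No read that lies inside the 300 nt can therefore be assigned to Rn7s1 or to Rn7s2 by its letters. Another 7SL-type model, Rn7s6, matches positions 1 to 214 at 98.6% identity.

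Rmrp lies at chr4:43492788-43493058 on the minus strand, 271 nt, and Rpph1 at chr14:50807449-50807767 on the minus strand, 319 nt. Capitals mark the stretch that a transcript of a neighbouring protein gene also holds: positions 36 to 159 of Rmrp, on the opposite strand in Ccdc107, and positions 36 to 268 of Rpph1, on the same strand in Ccnb1ip1. Identity was 100% over 124 nt for Rmrp and 233 nt for Rpph1.
Rmrp: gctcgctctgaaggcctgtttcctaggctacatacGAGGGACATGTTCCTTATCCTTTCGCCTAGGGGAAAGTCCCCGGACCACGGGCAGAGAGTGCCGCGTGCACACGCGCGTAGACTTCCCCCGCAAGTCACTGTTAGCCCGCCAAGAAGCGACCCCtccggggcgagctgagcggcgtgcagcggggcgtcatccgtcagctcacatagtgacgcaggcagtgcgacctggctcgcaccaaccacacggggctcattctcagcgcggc
Rpph1, positions 1 to 300: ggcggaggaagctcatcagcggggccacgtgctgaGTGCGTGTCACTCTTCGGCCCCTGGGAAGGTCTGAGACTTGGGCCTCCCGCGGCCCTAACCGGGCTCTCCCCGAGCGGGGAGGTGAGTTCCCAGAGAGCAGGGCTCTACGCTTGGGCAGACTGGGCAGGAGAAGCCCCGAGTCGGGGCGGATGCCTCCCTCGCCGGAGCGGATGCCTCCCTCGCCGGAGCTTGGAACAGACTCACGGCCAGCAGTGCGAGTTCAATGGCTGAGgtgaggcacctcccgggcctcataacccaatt
The Ccdc107 transcript is among those quantified in the tables, and the Ccnb1ip1 transcript with the match is not.

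The libraries held 58094631 and 55274368 expected counts in replicates 1 and 2. Expected counts are the authors' estimated reads per gene, which need not be whole, and TPM divides them by an effective length and scales each library to the same total. Mean fragments, worked out from the gap between annotated and effective lengths of long genes, were 213.2 nt in replicate 1 and 192.5 nt in replicate 2. Short genes had effective lengths well under their annotated ones, and by unequal amounts. A gene is called detected where each library gave it 1 TPM or more. All 12 erythroid progenitor markers were detected, with a summed level of 411 TPM in replicate 1 and 370.6 TPM in replicate 2. None of 8 lymphoid and none of 8 granulocyte and macrophage markers was, with sums of 0.54 and 0.70 TPM for the lymphoid and 0.35 and 0.52 TPM for the other list, in which S100a8 and Ly6g were at 0 counts. Gata1, labelled as missing, had 1862 and 1922 counts, or 7.10 ± 0.049 TPM (SD, n = 2), which does not show which part of the gene the reads cover.

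The 5 RNA genes held a large part of both libraries and the 3 protein genes a very small one. Together the RNA genes took 8.92% of the counts in replicate 1 and 10.98% in replicate 2 (9.95 ± 1.46%, SD, n = 2). Of the TPM they took 29.22% and 28.82% (29.0 ± 0.283%). Larp7, Mepce and Hexim1 summed to 31.41 TPM in replicate 1 and 24.45 TPM in replicate 2. For comparison, all nuclear protein-coding genes together held 18.0% and 17.0% of the TPM, less than these 5 genes. TPM divides by effective length, which was only 71.66 to 143.26 nt for the 5 RNA genes. The comparison therefore does not carry over to counts, of which the protein-coding share was not worked out. All 8 members were detected, beside 21.0% of all genes, a share that the choice of the members fixes.

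**Figure D1:**
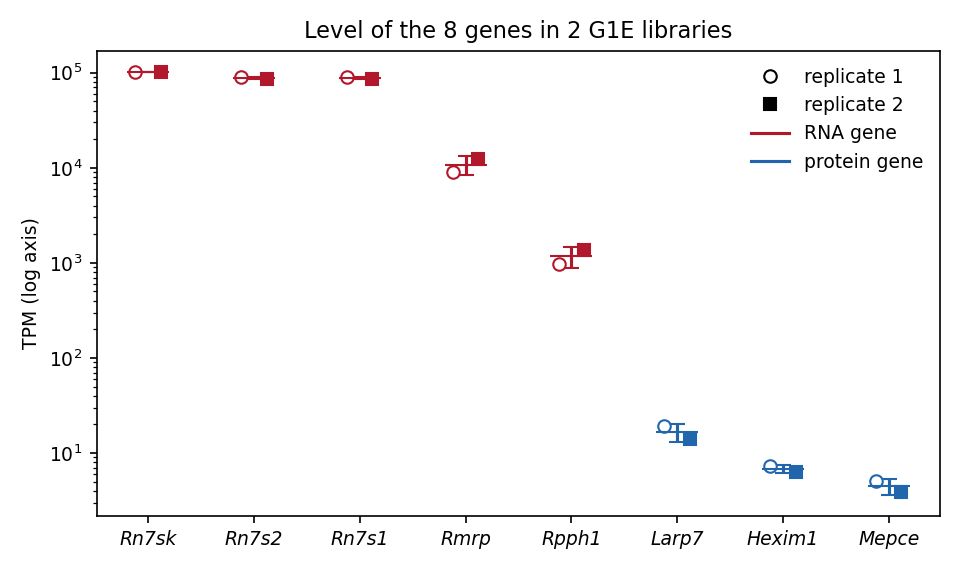
TPM of each of the 8 genes on a log axis, with open circles for replicate 1, squares for replicate 2, and the mean with its SD as a bar (n = 2). The RNA genes in red run from 102031.12 TPM down to 968.39 TPM, and the protein genes in blue lie between 19.06 and 3.89 TPM.

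Rn7sk had the highest TPM of all genes in both libraries. It had 2127490.45 counts in replicate 1 and 2489118.73 in replicate 2, and 101761.87 and 102031.12 TPM (101896 ± 190.4 TPM, SD, n = 2). Its share of the counts was 3.66% (95% Wilson interval 3.657 to 3.667%) in replicate 1 and 4.50% (4.498 to 4.509%) in replicate 2. The shares did not overlap within counting error, while the TPM values lay within 0.004 of each other on the log2 scale. Effective lengths of 123.86 and 143.26 nt, 37.4% and 43.3% of the annotated length, stand between the scales.

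Related 7SK models held almost none of these reads. The annotation has 12 other models that match Rn7sk over at least 50 nt at 90% identity or more, all typed as misc_RNA. They held 346.54 counts in replicate 1 and 569.26 in replicate 2, equal to 0.0163% and 0.0229% of Rn7sk, and 4 of them were at 0 in both. The highest were Gm24146 with 169.01 and 211.03 counts, Gm26315 with 105.66 and 186.48, and Gm24447 with 31.68 and 103.26. Gm24447 matches Rn7sk at 100% over 241 nt and still had few counts. In the deposited tables the posterior SD of a count says how far the estimate can move when reads fit several models. For Rn7sk it was 7.43 counts in replicate 1 and 14.72 in replicate 2, or 0.000349% and 0.000591% of the posterior mean. The authors' interval for its TPM (no level is stated) spanned 100842 to 101186 in replicate 1, against 100869 to 101168 in replicate 2. Both deposited TPM values lie just above their interval.

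The proteins of the 7SK particle had unequal mRNA levels, in the order Larp7, Hexim1, Mepce. Larp7 (chr3:127536714-127553349, minus strand, 1 transcript of 1880 nt) had 19.06 TPM in replicate 1 and 14.18 TPM in replicate 2 (16.62 ± 3.45 TPM, SD, n = 2), from 5365.7 and 4078.43 counts. Hexim1 (chr11:103116231-103119725, plus strand, 1 transcript of 3495 nt) had 7.31 and 6.38 TPM (6.85 ± 0.658 TPM), from 4051 and 3587 counts. Mepce (chr5:137781906-137787655, minus strand, 3 transcripts) had 5.04 and 3.89 TPM (4.47 ± 0.813 TPM), from 1632 and 1522 counts. All 3 were higher in replicate 1 by TPM, and the values of Hexim1 and Mepce did not overlap: the lower Hexim1 value exceeded the higher Mepce value.

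Larp7 over Mepce was 3.78 in replicate 1 and 3.65 in replicate 2, and Larp7 over Hexim1 was 2.61 and 2.22, both as ratios of TPM. Hexim1 over Mepce was 1.45 and 1.64. The RNA far exceeded the mRNAs: Rn7sk over Larp7 was 5339 and 7195, over Hexim1 13921 and 15992, and over Mepce 20191 and 26229. Per annotated length these ratios were lower, at 2252 and 3466 for Larp7, 5545 and 7327 for Hexim1, and 8389 and 12311 for Mepce. These are ratios of RNA per effective length and say nothing of protein amounts.

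The Mepce level depends on a minor transcript. Its 3128 nt transcript, which held nearly all counts (1530.28 in replicate 1 and 1468.21 in replicate 2), had 3.11 and 2.94 TPM (3.02 ± 0.12 TPM, SD, n = 2). A 524 nt transcript with 101.72 and 53.79 counts had 1.93 and 0.95 TPM and so made up 38.32% and 24.44% of the gene's TPM. The third transcript, 460 nt, was at 0 counts in both libraries. The log2 ratio of replicate 1 over replicate 2 was 0.37 for the gene's TPM and 0.08 for the long transcript alone, a reading chosen after seeing the data.

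The kinase that 7SK holds, and the proteins that release or use it, were all detected. All 11 genes of that list passed, and their median was 5.76 ± 0.728 TPM. The kinase subunit Cdk9 had 5.86 TPM in replicate 1 and 5.65 TPM in replicate 2. The cyclins that pair with it, Ccnt1 and Ccnt2, had 13.64 ± 1.09 and 16.63 ± 2.44 TPM (SD, n = 2), Ccnt2 being the highest of the list. The lowest was Mllt1, a reader of acylated histones in the super elongation complex, at 1.41 ± 0.127 TPM. Hexim2, the paralogue of Hexim1, had 1.65 and 1.49 TPM, and Hexim1 over Hexim2 was 4.43 in replicate 1 and 4.28 in replicate 2. The 4 hnRNPs that bind the 7SK not engaged with P-TEFb were higher, with a median of 61.6 ± 17.8 TPM, from Hnrnpr at 30.77 ± 4.53 TPM to Hnrnpa1 at 157.2 ± 31.2 TPM.

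The 7SL genes together exceeded Rn7sk, and the split between the copies is not measured. Rn7s1 had 1460998.24 counts in replicate 1 and 1680924.21 in replicate 2, and Rn7s2 had 1463722.57 and 1679508.28. Rn7s1 stood at 90093.59 and 86167.59 TPM (88131 ± 2776 TPM, SD, n = 2), and Rn7s2 at 90261.55 and 86095.02 TPM (88178 ± 2946 TPM). Rn7s2 was the higher copy in replicate 1 and Rn7s1 in replicate 2, by under 1% either time. As the letters are the same, the near-equal values show how the reads were divided and not what each copy made.

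The posterior values show the same limit. The posterior mean of Rn7s1 was 1626171.58 counts in replicate 1 and 1870699.92 in replicate 2, while that of Rn7s2 was 1298555.05 and 1489736.55. Posterior SDs were 34.5% and 33.3% of the mean for Rn7s1, and 43.3% and 41.8% for Rn7s2. In replicate 1, where SDs were ranked, these were the 2 largest SDs in counts of any gene. For Rn7s1 the authors' TPM interval spanned 34828.3 to 151127 in replicate 1, against 35956.8 to 142306 in replicate 2. For Rn7s2 it spanned 27933.7 to 144243 in replicate 1, against 28263.3 to 134672 in replicate 2. The sum hardly moved: posterior means of the pair differed from its expected counts by 5.82 and 3.98 counts, out of 2924720.81 and 3360432.49.

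The pair as 1 unit had 180355.14 TPM in replicate 1 and 172262.61 TPM in replicate 2 (176309 ± 5722 TPM, SD, n = 2). That was 5.03% (95% Wilson interval 5.029 to 5.04%) and 6.08% (6.073 to 6.086%) of the counts. Over Rn7sk the pair stood at 1.77 and 1.69 by TPM, a log2 ratio of 0.79 ± 0.049. On counts, with no length term, the ratio was 1.38 and 1.35, so the pair was the higher on both scales.

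Of the 8 genes, Rn7s1 and Rn7s2 were the ones marked as sharing reads, that is, with a posterior SD above 0.05 of the posterior mean in either library. Of all genes with 10 or more counts, 7.45% carried that mark, and among the 8429 genes with at least 1000 counts, 1.10% did. Of those 8429 genes, 37 (0.439%) had a ratio at least as high as Rn7s1 in replicate 1, Rn7s1 and Rn7s2 included. Rn7s6 had 12737.19 counts in replicate 1 and 11733.51 in replicate 2, with posterior SDs of 157.57 and 172.61 counts. Relative to their counts, these SDs were far smaller than those of the pair. The 6 misc_RNA models that match 7SL, Rn7s6 included, held 12743.19 and 11738.51 counts, and Rn7s6 held nearly all of them. That was 0.872% and 0.698% of Rn7s1 alone, so the share of the whole 7SL pair was smaller. The pair had 2924720.81 and 3360432.49 counts. The protein gene Sfpq also matches, over 53 nt at 90.6% on the opposite strand, and had 19239.57 and 14859.97 counts with posterior SDs of 6.37 and 6.79.

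**Figure D2:**
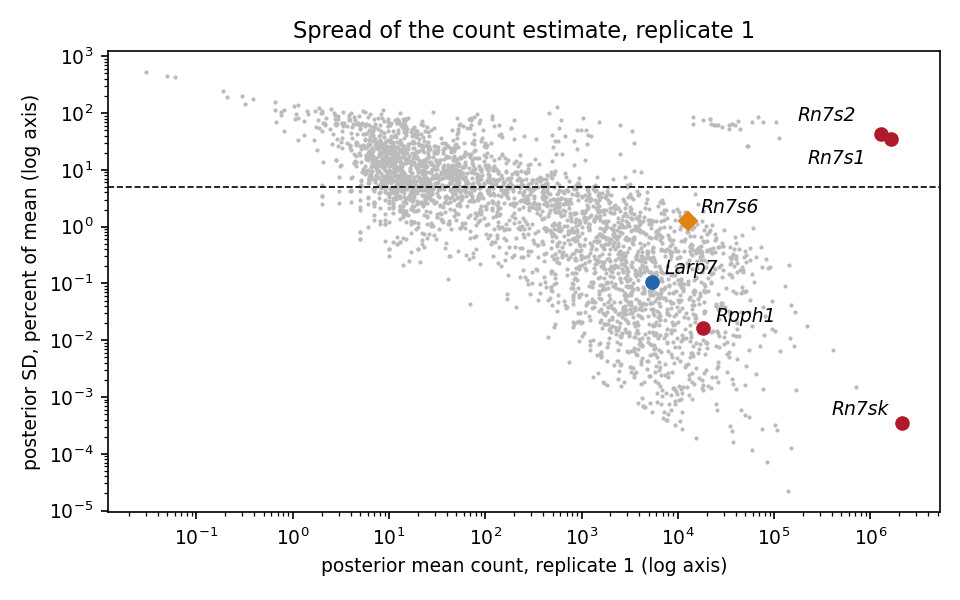
Posterior SD of the count as a percent of its posterior mean, against the posterior mean count in replicate 1, both on log axes, for the 3158 genes with an SD above 0; the dashed line is the mark for shared reads. Rn7s1 and Rn7s2 lie at 34.5% and 43.3% at the far right, Rn7sk lies at 0.000349% at like counts, and Rmrp, Mepce and Hexim1 are not drawn as their SD was 0.

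The SRP proteins were all detected, at levels far under their RNA. The 9 genes of the particle and its receptor that were measured had a median of 21.9 ± 4.16 TPM. The lowest was Srprb, the receptor's beta subunit, at 4.41 ± 0.276 TPM (SD, n = 2). Srp54c, one of the genes for the GTPase that binds the signal peptide, was highest at 59.94 ± 6.6 TPM. Srp54a, its near copy, had 19.24 ± 3.36 TPM and a posterior SD of 3.12% and 3.74% of its count, under the mark. Srp9 and Srp14, which bind the Alu-like end of 7SL as a dimer, had 23.98 ± 1.14 and 55.73 ± 4.23 TPM. Srp54b, another gene for the GTPase, was not analysed here.

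Rmrp and Rpph1 were lower than 7SK and 7SL and were the members that differed most between the libraries. Rmrp had 109674 counts in replicate 1 and 189232 in replicate 2, and 9067.67 and 12509.93 TPM (10789 ± 2434 TPM, SD, n = 2). Rpph1 had 18460.31 and 30909.54 counts, and 968.39 and 1374.77 TPM (1171.6 ± 287.4 TPM). Both were lower in replicate 1 on either scale. Their ratio moved little: Rmrp over Rpph1 was 9.36 in replicate 1 and 9.10 in replicate 2 by TPM, and 5.94 and 6.12 by counts. The gap between the scales comes with effective lengths of 71.66 and 88.83 nt for Rmrp against 112.94 and 132.03 nt for Rpph1. Rn7sk over Rmrp, by TPM, was 11.22 in replicate 1 and 8.16 in replicate 2, and per annotated length 15.88 and 10.77. By counts it was 19.4 and 13.15.

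Both genes overlap a protein gene. Ccdc107 covers 159 nt of Rmrp on the opposite strand and had 546 counts in replicate 1 and 514 in replicate 2. Ccnb1ip1 covers 284 nt of Rpph1 on the same strand and had 281 and 233 counts. Posterior SDs were 0 for Rmrp, Ccdc107 and Ccnb1ip1, and 3.04 and 6.45 counts for Rpph1. The authors' estimate thus left no reads to divide between Rmrp and Ccdc107. For Rpph1 the SDs cannot show this, because the Ccnb1ip1 transcript that holds the shared stretch was not quantified. Which strand was counted is not stated, and reads of Rmrp and Ccdc107 in the shared stretch could not be told apart without it. The counts of either neighbour were under 2% of those of its RNA gene.

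The listed proteins of RNase P and RNase MRP, not all of them shared by the pair, were, but for 1, detected. Of 11 genes, 10 reached 1 TPM in each library, and the median was 5.6 ± 0.255 TPM. The exception was Rpp25, which had 0.57 TPM in replicate 1 and 0.98 TPM in replicate 2, from 109 and 193 counts. Its paralogue Rpp25l had 6.12 ± 0.332 TPM (SD, n = 2), named after its values were seen. Pop5 was highest at 12.88 ± 2.09 TPM. Pop1, the large scaffold protein, had 3.52 ± 0.976 TPM, Rpp30 had 7.68 ± 0.891 TPM and Rpp38 had 3.78 ± 0.665 TPM.

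The listed genes of the machinery that makes these RNAs were detected wherever they were measured. All 13 listed genes for Pol III subunits passed, a list without the subunits shared with Pol II. Their median was 6.84 ± 0.976 TPM, from Polr3d at 2.25 ± 0.0566 TPM to Polr1d, shared with Pol I, at 33.5 ± 1.45 TPM. All 18 measured genes of the list for Pol III initiation and its control passed, Gtf3c2 not being analysed here, with a median of 6.67 ± 0.697 TPM. The lowest was Snapc2, a subunit of the complex that binds the upstream element of the 7SK, Rmrp and Rpph1 type of promoter, at 2.01 ± 0.453 TPM. Snapc1 of the same complex had 3.91 ± 0.134 TPM and Brf2, the initiation factor of that promoter type, 2.46 ± 0.431 TPM. Maf1, the repressor of Pol III, had 16.44 ± 1.23 TPM. Ssb, the La protein that binds the 3′ end of new Pol III transcripts, was highest at 95.85 ± 14.8 TPM.

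Over the 6 protein lists, 65 of 66 measured genes (98.5%) were detected, beside 38.7% of all nuclear protein-coding genes. Their median was 6.95 TPM, beside 0.055 TPM over all nuclear protein-coding genes and 7.0 TPM over the 8303 detected ones. The lists hold genes that most growing cells use, and their levels were close to those of detected genes at large. Larp7 lay above that median, Hexim1 close to it and Mepce under it.

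**Figure D3:**
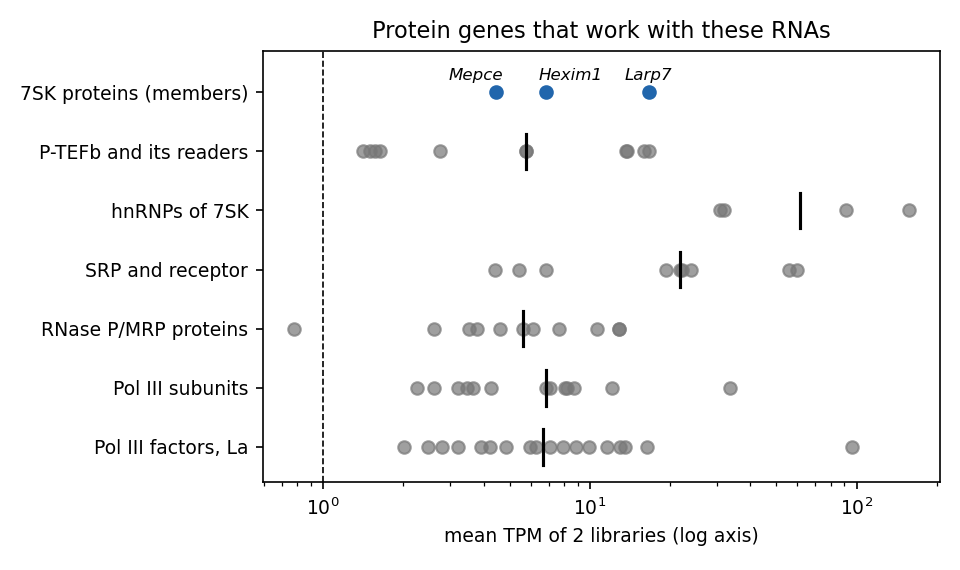
Mean TPM of 2 libraries on a log axis for the 3 protein genes that bind 7SK, in blue, and for the genes of 6 lists of proteins that work with these RNAs, in grey, with the median of each list as a vertical bar. The dashed line is the 1 TPM needed for detection, and Rpp25 at 0.775 TPM is the gene left of it.

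In the order of TPM, 5 of 7 steps between neighbouring members were larger than the replicate spread. Its base was the SD between libraries of log2(TPM + 1), pooled over genes of like level, which was 0.17 at 1 to 10 TPM and 0.49 above 1000 TPM. The steps among Rn7sk, Rn7s2 and Rn7s1 were not past it: the gaps were 0.21 and 0.001 on the log2 scale, with a spread of 0.70. Both gaps rest on the split between the 7SL copies, which is not measured, so they do not order 7SK and 7SL. As 1 unit, the pair stood above Rn7sk by 0.79 on the log2 scale, more than 0.70. With annotated length that ratio was 0.588, less than 0.70. With levels as log2(TPM + 1), the steps from Rn7s1 to Rmrp (3.05), Rmrp to Rpph1 (3.21) and Rpph1 to Larp7 (6.05) were all past their spread. Larp7 to Hexim1 was 1.16 with a spread of 0.30, and Hexim1 to Mepce 0.53 with a spread of 0.245, the narrowest of the 5. Without the pseudocount these last steps were 1.27 and 0.625.

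Genes of the nearest level, with likeness taken as the closest mean TPM over the 2 libraries, are given for each member. Under the 7SL pair came Gm22513, typed as an snRNA, with 62806.82 TPM in replicate 1 and 46887.19 TPM in replicate 2. Rmrp lay between the snRNA genes Gm23472 (14050 ± 3126 TPM) and Gm24265 (8831 ± 157.7 TPM), within its own SD of the lower one. Rpph1 lay between the snoRNA genes Gm25791 (1327.9 ± 219 TPM) and Gm26397 (1157.8 ± 236.5 TPM), within its SD of both. Larp7 lay between Eif2a (16.63 ± 1.49 TPM) and a gene with no name in the annotation used, Mepce beside Nfya (4.47 ± 0.431 TPM) and Haus5 (4.47 ± 0.0354 TPM), and Hexim1 between Tmed10 (6.85 ± 1.69 TPM) and Exoc2 (6.84 ± 0.636 TPM). By counts, Rmrp and Rpph1 were above these neighbours. Gm23472 had 38564 counts in replicate 1 and 80989.46 in replicate 2, and Gm24265 had 5588.8 and 10811.24, where Rmrp had 109674 and 189232. Gm25791 had 614 and 1577, and Gm26397 had 451 and 1248, where Rpph1 had 18460.31 and 30909.54. For these genes the likeness holds only after division by effective length. Likeness over 2 libraries of 1 group says only that the TPM values were alike.

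Neighbours in the genome did not share the levels of the RNA genes. C920006O11Rik, 280 nt from Rn7sk on the opposite strand, had 22 counts in replicate 1 and 52 in replicate 2. Rps29, a ribosomal protein gene 108 nt from Rn7s1 on the opposite strand, had 666.68 and 881.12 TPM. Parp2, a DNA repair enzyme gene 73 nt from Rpph1 and read the other way, had 15.93 and 15.23 TPM. Larp7 holds the microRNA genes Mir302a, Mir302b, Mir302c, Mir302d and Mir367 on its opposite strand, all at 0 counts in both libraries; the labelled size range begins at 200 nt. Zgrf1, 139 nt from Larp7, had 5.67 and 4.93 TPM, and Zcwpw1, 142 nt from Mepce, had 2.33 and 1.81 TPM, both on the opposite strand. Hexim1 had no annotated gene within 1000 nt.

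Between the libraries, the counts of all 5 RNA genes were lower in replicate 1 and none passed 2-fold. After TMM scaling, which sets the bulk of genes level, log2 counts of replicate 1 over replicate 2 were -0.40 for Rn7sk, -0.37 for Rn7s1 and -0.37 for Rn7s2. They were -0.96 for Rmrp, a 1.94-fold difference, and -0.91 for Rpph1, 1.88-fold, so that these 2 passed 1.5-fold. Among proteins, Larp7 stood at 0.23, Hexim1 at 0.005 and Mepce at -0.07. In bulk RNA, fewer cells of a type and less RNA per cell cannot be told apart.

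Of the 8 members, 0 passed 2-fold in either direction, where 22.2% of the 18409 genes with at least 10 counts did. That share was 15.5% for genes higher in replicate 1 and 6.75% for genes lower in it, and it includes 639 genes at 0 in 1 library. Low counts made up most of it: among the 8429 genes with at least 1000 counts, the range all 8 members fall in, 0.937% passed. The members' count is thus near this background, and with 1 library on each side the comparison has no replicate check. Past 1.5-fold the count was 2 of 8 members, Rmrp and Rpph1, beside 32.2% of all genes tested and 3.05% of those with at least 1000 counts.

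**Figure D4:**
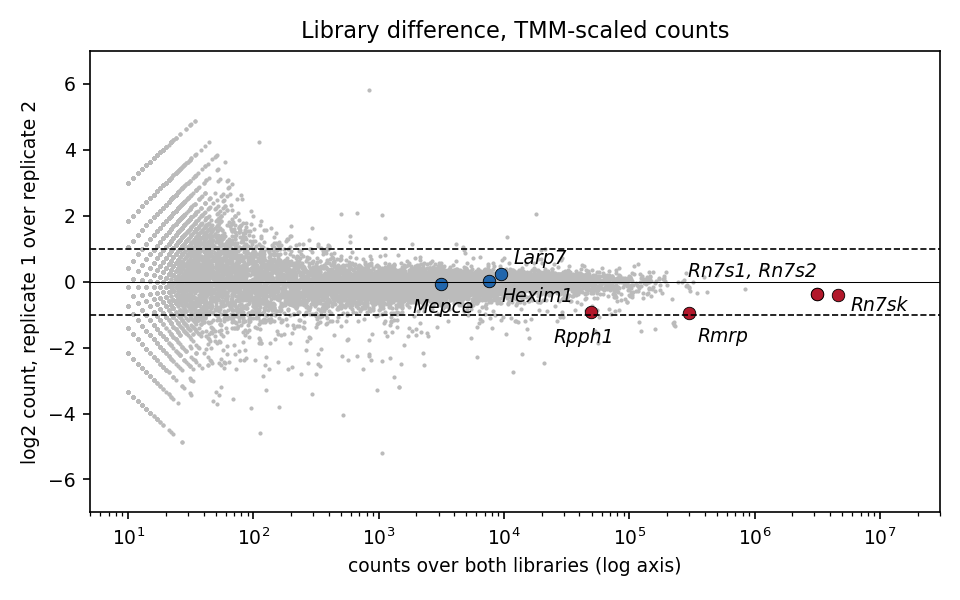
Log2 of TMM-scaled counts, replicate 1 over replicate 2, against counts over both libraries on a log axis, for the 17770 genes with counts in both; dashed lines mark 2-fold. The 5 RNA genes in red lie under 0, with Rmrp at -0.96 and Rpph1 at -0.91 nearest to the line, and the 3 protein genes in blue lie between -0.07 and 0.23.

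Classes of short RNA were also lower in replicate 1 by counts. The misc_RNA class holds Rn7sk, Rn7s1 and Rn7s2 themselves, with models that match them, so it is no independent comparison. The median log2 count of replicate 1 over replicate 2 was -0.51 over 25 misc_RNA genes, -1.20 over 53 snRNA genes and -2.04 over 112 snoRNA genes, beside -0.06 over the 8303 detected protein-coding genes. Among other genes of 250 to 350 nt, 63 of 149 passed 2-fold (42.3%), 25 higher and 38 lower in replicate 1, with a median of -0.17. By TPM the medians were -0.004 for misc_RNA, -0.37 for snRNA, -0.80 for snoRNA and 0.23 for the genes of 250 to 350 nt, beside 0.14 for the protein-coding genes. The longer mean fragment of replicate 1 moves with this difference, and its part in it was not tested. By counts, Rmrp, the shortest of the 5 RNA genes at 271 nt, had the largest difference. Rpph1 at 319 nt came next, and Rn7sk at 331 nt and the 7SL pair at 300 nt had smaller ones. By TPM, Rpph1 (-0.51) differed more than Rmrp (-0.46).

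The scale changes the picture. By TPM the log2 ratio of replicate 1 over replicate 2 was -0.004 for Rn7sk, 0.06 for Rn7s1 and 0.07 for Rn7s2, so the direction of the 7SL genes flips, while Rmrp stood at -0.46 and Rpph1 at -0.51. The detected protein-coding genes had a median of 0.14 by TPM and -0.06 by TMM-scaled counts. Relative to that median, all 5 RNA genes were lower in replicate 1 on both scales. By TPM, Rn7sk stood at -0.14, Rn7s1 at -0.07, Rn7s2 at -0.07, Rmrp at -0.60 and Rpph1 at -0.64. The values of Rn7sk and the 7SL genes were small beside the pooled SD of 0.49 for genes above 1000 TPM. Rn7s1 and Rn7s2 divide 1 set of reads and so do not count as separate measurements. Larp7 stood at 0.29 relative to the median both by counts and by TPM, Hexim1 at 0.07 and 0.06, and Mepce at -0.005 by counts and 0.24 by TPM.

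**Figure D5:**
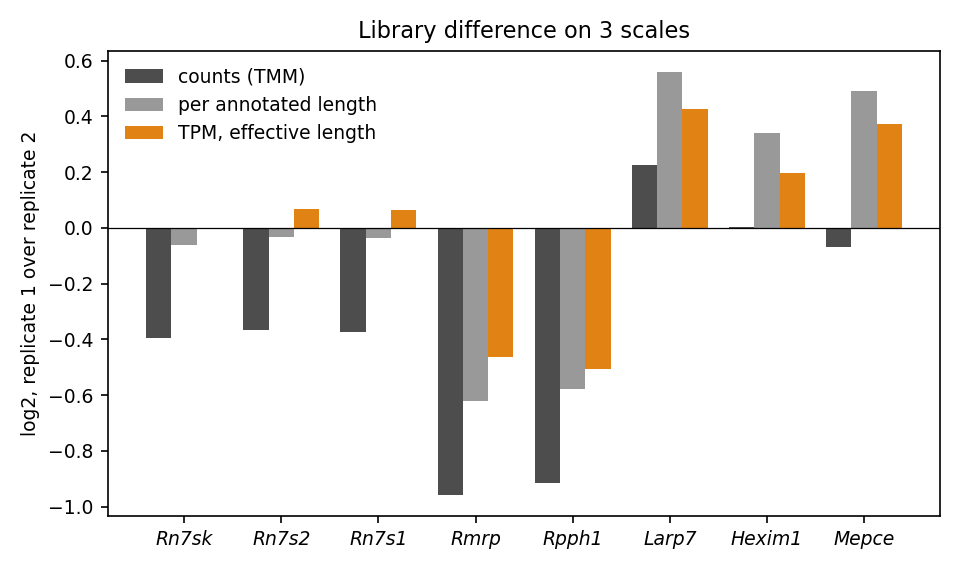
Log2 of replicate 1 over replicate 2 for each of the 8 genes on 3 scales: TMM-scaled counts in dark grey, values per annotated length in light grey, and TPM, which uses the effective length, in orange. Rmrp and Rpph1 are under 0 on all 3, Rn7s1 and Rn7s2 stand at -0.37 by counts and at 0.06 and 0.07 by TPM, and Larp7 is above 0 on all 3.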

How the data were processed

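Total RNA of 2 G1E libraries, labelled as biological replicates 1 and 2, was analysed from the gene and transcript tables the authors deposited, 1 library per table. Per the file headers these hold an expected count (estimated reads, with reads that fit several models divided), TPM, a posterior mean and SD of the count, an interval for the TPM and, per transcript, the percent of the gene's TPM. The deposited read-me texts name mm10 and GENCODE M4. The aligner, the quantifier, the strand counted and the interval level: not given in the sources used here. Symbols, types, coordinates and sequences came from GENCODE M21 on GRCm38 (mm10), matched on gene identifier: 42462 of 43346 genes had a name. Rows with numeric names (20 and 37.61 counts in replicates 1 and 2) and 97 spike-ins (0 counts) were left out.

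Deposited expected counts were rounded to whole numbers for scaling with TMM (edgeR 4.0.16) or, as an alternative, DESeq2 1.42.0 size factors (R 4.3.3). The code was tested on simulated data. Genes needed 10 counts over both libraries, and a gene at 0 in 1 library counted as past 2-fold. Log2 ratios between libraries use no pseudocount. Log2 ratios and steps between members, and the replicate spread, use log2(TPM + 1), which understates those of genes at few TPM, while ratios given as plain numbers use none. The spread of a step between 2 genes is the root of the summed variances of their level classes. Sequence matches used blastn 2.17.0, with 50 nt and 90% identity as minimum. Other steps ran in Python 3.11.15 with pandas 2.3.3, scipy 1.17.1, matplotlib 3.10.9 and numpy 2.4.6.

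A list's centre is the median of its genes' mean TPM, and its SD that of the 2 libraries' medians. The members and lists were chosen with earlier results of these data known. With 1 group there was no contrast, so no p-value is given. Named genes are the 8 members, the highest and lowest of each list, listed genes of known role, nearest genes by level and position, and the 3 matching models with most counts. A count of 0 allows up to 3 counts, or 0.0516 CPM in replicate 1 and 0.0543 CPM in replicate 2. Intervals and floors cover counting error only, as the reads carry no molecular identifiers. Some sequences are not reported here. Alternatives were other scaling, length terms, thresholds and leaving out either library.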

Additional observations from a re-analysis of the deposited data

How the results depend on the processing

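The summed level of the 8 genes, 290194 TPM, became 341579 with annotated in place of effective length, 99668.7 as CPM with no length term, and 1658477 when scaled to nuclear protein-coding genes alone. Leaving out either library gave 288203 to 292184, and posterior mean TPM 287689. The order of the members was the same by TPM, annotated length and CPM; posterior mean TPM put Rn7s1 above Rn7s2. No member passed 2-fold with DESeq2 size factors, total counts or TPM, and 2 passed 1.5-fold. Of all genes, 4091 passed 2-fold, 4127 with DESeq2 size factors, 4180 with total counts, 3846 by TPM and 257 with at least 100 counts. Listed partner genes detected numbered 65, 40 at 5 TPM and 66 at 0.5 TPM, and 65 without either library. The members marked as sharing reads were 2 at thresholds of 0.02 and 0.1 too. Leaving out 1 of 2 libraries can never move a mean by more than its SD. Apart from that, of 21 alternative values of 7 log2 ratios between members, 12 moved by less than the replicate SD and 9 by more, with 0 reversed. Most of these values changed only the pseudocount, which can hardly move ratios of abundant RNAs. With annotated length, every ratio moved by more than its SD except Larp7 over Hexim1 (1.156 to 1.152). No paired analysis was possible because there is 1 group. With 2 libraries, an SD rests on 1 difference, and annotated lengths not far above the mean fragment make the TPM of these short RNAs depend on the authors' fragment estimate.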

Other observations

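Other Pol III transcripts, shorter than the 5 RNA genes of the report, gave few counts. Those measured are 102 to 143 nt long, under the 200 nt at which the labelled size range begins. Their counts do not show how much of these RNAs the cells held. The Y RNAs, which bind the Ro protein, had 54 counts in replicate 1 and 284 in replicate 2 for Rny1, and 367 and 1233 for Rny3. The vault RNA gene Vaultrc5 had 114 and 639 counts. The 5S ribosomal RNA gene Rn5s was at 0 in both, which allows up to 3 counts, in RNA that had been depleted of ribosomal RNA. Bc1 was not analysed here. All 3 with counts passed 2-fold lower in replicate 1, with log2 counts of replicate 1 over replicate 2 of -2.56 for Rny1, -1.92 for Rny3 and -2.66 for Vaultrc5. Rny3 was listed at 0 TPM in both libraries and Rny1 at 0 TPM in replicate 1 despite these counts, so TPM gives no level for them.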
